A study of Mus musculus with 6 samples.

Results

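A set of 10 genes of epithelial cell structure was described in RNA from the mouse vomeronasal organ. They comprised the junction plaque genes Jup, Ctnnb1 and Dsp, the membrane adhesion genes Cdh1 and Epcam, the keratins Krt18, Krt8, Krt14 and Krt5, and the transcription factor gene Trp63. The 10 members were given by name, out of 38561 genes in the deposited table. They were picked with the contrast between the exposures in view, because Jup was lower after pup exposure, and the question was whether the other members shared that lower level. Differences between the exposures are therefore given for the members as a description, with no p. Calls of members are counted only to show how they vary with the processing. All 10 members had counts in every library and all 10 were among the 15498 genes tested.

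The study holds 6 RNA-seq libraries from male CD-1 mice, an outbred stock, of which 3 followed pup exposure and 3 a control exposure that the labels do not describe. No age, genotype or agent is given in the labels, and every library was made from RNA pulled down through ribosomes that carry phosphorylated protein S6 (pS6). Phosphorylation of S6 rises in cells that have been active, so the values are read counts in this precipitate and not in whole tissue. Whether each library stands for its own animal is not in the labels, so spreads and p-values measure only the variation between these libraries, which may be technical. Total counts were 10590716 to 11240065 per control exposure library and 18199476 to 20871266 per pup exposure library, so depth was separated by group, and TMM factors ran from 0.605 to 1.39.

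Epithelial cells hold together through junctions. Cadherins cross the membrane and bind catenins inside the cell, which tie adherens junctions to actin, while desmosomal cadherins bind plakoglobin, plakophilins and desmoplakin, which tie desmosomes to keratin filaments. Keratin filaments form from one type I and one type II chain, Krt18 with Krt8 in single-layered epithelia and Krt14 with Krt5 in basal cells of layered epithelia. In the vomeronasal organ, supporting cells and gland cells are single-layered epithelial cells, and basal cells lie beneath the sensory neurons. RNA of a member can come from several of these cell types, and in bulk RNA fewer cells of a type and less RNA per cell cannot be told apart.

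Sequence before the RefSeq start site is shown for Jup, the gene the members were gathered around. It is shown too for Krt8 and Krt18, the keratin partners that were also at lower mean levels after pup exposure. Epcam is included as an epithelial gene that was not lower in mean. RefSeq start sites on build GRCm38.p6 were matched for 8 of the 10 members, in 9 windows. Each window holds the 250 bases before the RefSeq start, 5′ to 3′, and capitals mark matches on either strand. For Krt8 and Krt18 that start lies inside the gene as placed by GENCODE M21, so part of each window is within the annotated gene. The motifs searched were the CCAAT box (CCAAT), the GC box (GGGCGG), an E-box (CAGGTG) and the TATA box (TATAAA).
Jup, chr11:100397791-100398040, minus strand: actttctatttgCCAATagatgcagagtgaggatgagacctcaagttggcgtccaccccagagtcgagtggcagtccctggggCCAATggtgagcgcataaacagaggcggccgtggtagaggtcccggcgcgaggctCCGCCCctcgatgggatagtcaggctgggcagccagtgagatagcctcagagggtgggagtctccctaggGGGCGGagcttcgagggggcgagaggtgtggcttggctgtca
Krt8, chr15:102004343-102004592, minus strand: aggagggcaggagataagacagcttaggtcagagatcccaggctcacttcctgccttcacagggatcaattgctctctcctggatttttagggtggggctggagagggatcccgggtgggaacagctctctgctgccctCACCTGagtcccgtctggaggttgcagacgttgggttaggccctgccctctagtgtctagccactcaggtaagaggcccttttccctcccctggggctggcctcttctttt
Krt18, chr15:102027966-102028215, plus strand: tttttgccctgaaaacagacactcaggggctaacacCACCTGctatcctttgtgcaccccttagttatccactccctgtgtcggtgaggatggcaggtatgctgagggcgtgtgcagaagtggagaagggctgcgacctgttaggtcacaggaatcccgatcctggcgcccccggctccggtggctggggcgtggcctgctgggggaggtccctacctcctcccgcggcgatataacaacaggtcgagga
Epcam, chr17:87635729-87635978, plus strand: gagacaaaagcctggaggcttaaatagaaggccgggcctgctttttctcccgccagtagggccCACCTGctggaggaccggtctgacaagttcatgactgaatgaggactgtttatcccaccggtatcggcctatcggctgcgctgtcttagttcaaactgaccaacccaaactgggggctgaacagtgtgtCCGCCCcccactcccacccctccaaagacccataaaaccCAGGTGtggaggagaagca
The Jup window held 2 matches to CCAAT and 2 to GGGCGG, with none to CAGGTG or TATAAA. The Krt8 and Krt18 windows each held 1 match to CAGGTG and no other of these motifs, and the Epcam window held 2 to CAGGTG and 1 to GGGCGG. Over all 32851 RefSeq windows of 250 bases, 33.8% held CCAAT, 32.7% GGGCGG, 17.2% CAGGTG and 12.4% TATAAA. These matches describe the letters of the windows and are not evidence of binding.

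Levels are given as CPM, the read count relative to the library total, with totals scaled by the TMM method. A positive log2 fold change means a higher level in the pup exposure libraries, called pup libraries from here on, than in the control exposure (control) libraries. To compare levels between genes, CPM was divided by the annotated exon length in kilobases. On that per-length scale Krt18 was the highest member in all 6 libraries and Trp63, which encodes the master regulator p63 of basal cells, the lowest in all 6. After control exposure the per-length levels were 473 ± 139 for Krt18, 92.9 ± 18.5 for Krt8, 62.5 ± 21.6 for Jup and 61.7 ± 17.9 for Epcam (SD, n = 3 each). They were 15.9 ± 1.96 for Dsp, 15.5 ± 1.91 for Ctnnb1, 9.99 ± 1.59 for Cdh1, 5.35 ± 0.331 for Krt14, 3.79 ± 2.25 for Krt5 and 0.401 ± 0.0521 for Trp63 (SD, n = 3 each). Krt8 was 2nd in all 3 control libraries. Jup and Epcam lay within their spread of each other, as did Dsp with Ctnnb1 and Krt14 with Krt5. After pup exposure Jup, at 13.1 ± 5.6, was the 7th of the 10 by mean per-length level, below Dsp (28.7 ± 21.5), Cdh1 (21 ± 7.39) and Ctnnb1 (20.4 ± 3.68; SD, n = 3 each). Within libraries its place was 3rd or 4th after control exposure and 5th to 7th after pup exposure. The annotated exons of Jup cover 6436 bases while its longest annotated transcript has 3205, so its place in the order depends on the length used.

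Jup encodes plakoglobin, also called gamma-catenin, the catenin found in both desmosomes and adherens junctions. Its level was 516, 444 and 247 CPM in the control exposure libraries (replicates 1 to 3) and 43.7, 95.1 and 113 CPM in the pup exposure libraries. The groups did not overlap: the lowest control exposure library stood above the highest pup exposure library. The means were 402 ± 139 and 84 ± 36.1 CPM (SD, n = 3 each), a ratio of 0.209, and the log2 fold change was -2.26 (SE 0.48). Of all genes tested, 0.697% had a log2 fold change this low or lower. The raw counts of Jup were 6578, 4951 and 1578 in the control libraries and 815, 2684 and 2290 in the more deeply sequenced pup libraries. In GENCODE M21 (GRCm38) the gene lies on chromosome 11 from 100368958 to 100397763, minus strand, and is protein-coding (ENSMUSG00000001552). No word of 50 bases in its longest transcript occurred in a transcript of another gene.

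**Figure D1:**
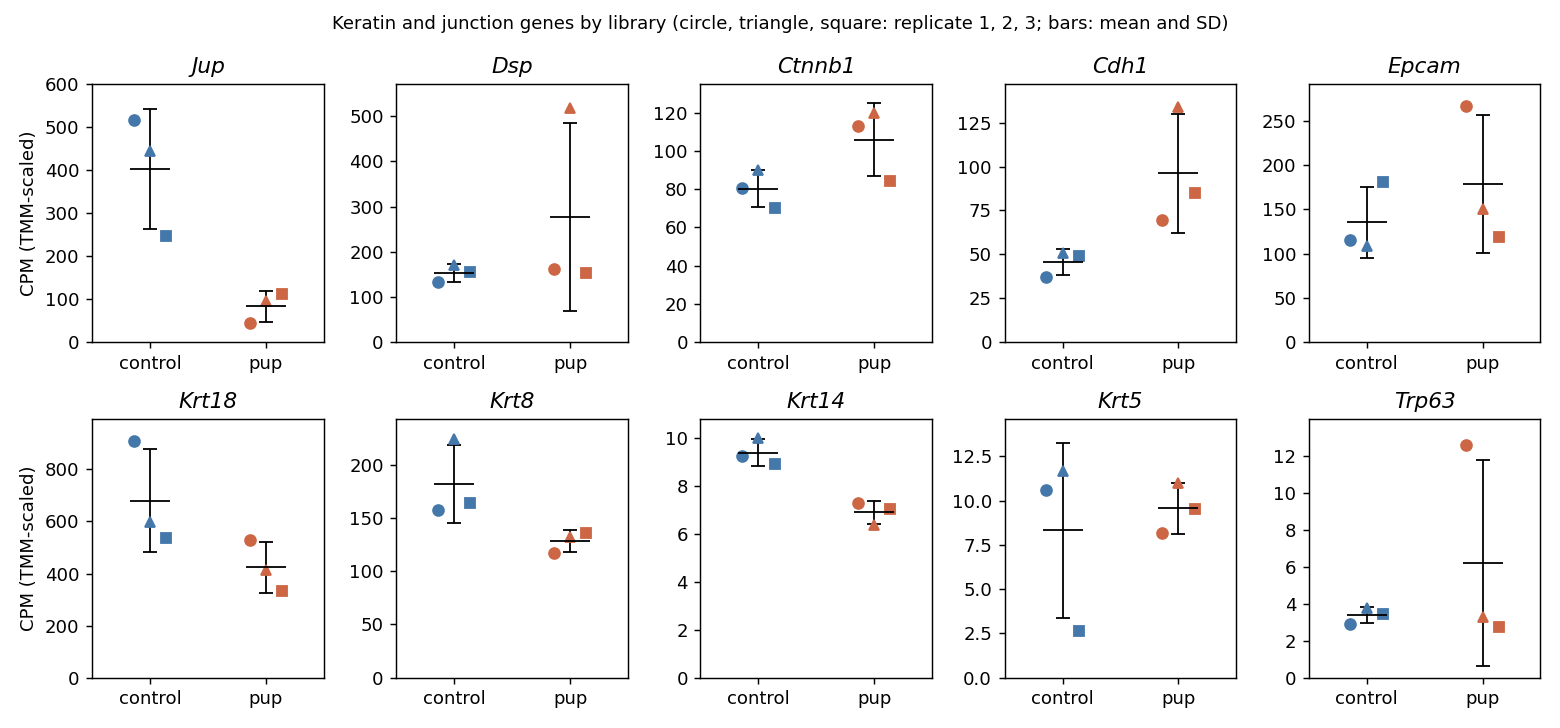
Level of each member by library in TMM-scaled CPM (vertical axes start at 0 and differ between panels); points are libraries, black bars mean and SD of 3. Jup is lower in every pup exposure library, the junction genes Dsp, Ctnnb1, Cdh1 and Epcam have higher means after pup exposure, and single libraries stand apart for Dsp (517 CPM), Epcam (267 CPM), Trp63 (12.6 CPM) and Krt5 (2.66 CPM).

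The other plaque genes had higher mean levels after pup exposure. Ctnnb1, which encodes beta-catenin, the close relative of plakoglobin in adherens junctions and the Wnt pathway, had 80.7, 89.9 and 70.2 CPM in the control libraries, against 113, 120 and 84.1 CPM in the pup libraries. Its groups overlapped by 1 library on each side, and its log2 fold change was 0.40 (SE 0.35). Dsp, which encodes desmoplakin, the link from the desmosome to keratin filaments, had 133, 171 and 156 CPM in the control libraries, against 162, 517 and 153 CPM in the pup libraries. Pup exposure replicate 2 alone stood high, and the other pup exposure libraries lay within the control exposure range. The log2 fold change of Dsp was 0.86 (SE 0.50), and 0.059 without pup exposure replicate 2. For Ctnnb1, 18.6% of the 50-base words were shared with Ulk4, a gene on the opposite strand that overlaps its end, so some of its reads are uncertain. Ulk4 had 996 counts over the 6 libraries.

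Among the membrane genes, Cdh1 had the largest positive log2 fold change of the 10 members. Cdh1 encodes E-cadherin, the adherens junction cadherin of epithelia, and had 37.4, 50.9 and 48.8 CPM in the control libraries, against 69.3, 134 and 84.8 CPM in the pup libraries. All pup exposure libraries lay above all control exposure libraries, with a log2 fold change of 1.07 (SE 0.38). Epcam, an epithelial adhesion molecule, had 116, 109 and 181 CPM in the control libraries, against 267, 150 and 119 CPM in the pup libraries. Its groups overlapped, its log2 fold change was 0.40 (SE 0.42), and without pup exposure replicate 1 it was -0.0053.

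The keratins of single-layered epithelia were lower in mean, by far less than Jup. Krt18 had 908, 597 and 536 CPM in the control libraries, against 527, 412 and 333 CPM in the pup libraries, and Krt8 had 158, 224 and 164 CPM and 117, 132 and 136 CPM. Neither gene's groups overlapped, although for Krt18 the nearest libraries, at 536 and 527 CPM, were close. The log2 fold changes were -0.68 (SE 0.41) for Krt18, or -0.42 without control replicate 1, and -0.50 (SE 0.36) for Krt8. Of the words of Krt8, 29.7% also occurred in other genes, mostly the pseudogene Krt8-ps, so its counts are uncertain. For Krt18 the share was 0.720%.

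The basal cell genes were near the bottom of the members' levels. Krt14 had 9.25, 10 and 8.91 CPM in the control libraries, against 7.29, 6.38 and 7.02 CPM in the pup libraries, with no overlap, and a log2 fold change of -0.45 (SE 0.44). Its partner Krt5 had 10.6, 11.7 and 2.66 CPM and 8.15, 11 and 9.54 CPM, with overlap. Krt5 had a log2 fold change of 0.19 (SE 0.55), which was -0.25 without control exposure replicate 3, a library with 17 counts of the gene. Trp63 had 2.9, 3.77 and 3.44 CPM and 12.6, 3.29 and 2.72 CPM. Pup exposure replicate 1 alone stood high for Trp63, and the log2 fold change of 0.88 (SE 0.69) was -0.16 without it. Other genes shared 14.4% of the words of Krt14 (11.4% with Krt16) and 12.2% of those of Krt5 (6.98% with Krt6a).

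Over the 10 members, 4 had a negative log2 fold change, beside 48.5% of all genes tested, and 6 a positive one, with a median of 0.29, beside a median of 0.03 over all genes tested. Over all 15498 genes edgeR called 0% lower and 0% higher at an adjusted p of 0.05, and limma-voom 7 and 1. At an unadjusted p under 0.05 edgeR gave 723 lower and 978 higher. DESeq2, run on the 23900 genes with a count, called 77 lower and 50 higher after adjustment, with no adjusted p for 11599. Groups did not overlap for 4 members at lower levels (Jup, Krt8, Krt14 and Krt18), beside 9.60% of all genes, and for 1 at higher levels (Cdh1), beside 10.1%. The other 5 members overlapped, and over all genes 19.8% had groups that did not overlap. Since the members were picked from this contrast, nothing is read from these counts against the background.

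Ratios within a library do not depend on how libraries are scaled. On the per-length scale the ratio of Jup to Ctnnb1 was 5.15, 3.98 and 2.84 after control exposure and 0.313, 0.637 and 1.09 after pup exposure. The ratio of Jup to its desmosome partner Dsp was 5.82, 3.9 and 2.38 and then 0.404, 0.276 and 1.11. The ratio of Jup to Cdh1 was 9.8, 6.19 and 3.59 and then 0.448, 0.504 and 0.948. In each of these ratios the groups were separate. The ratios hold the Jup values that chose the members, so they describe that difference again and add no support to it. The ratio of Dsp to Ctnnb1, which does not involve Jup, was 1.03 ± 0.154 and 1.35 ± 0.833 (SD, n = 3 each) and overlapped. The keratin pairs kept overlapping ratios too. Krt8 to Krt18 was 0.209 ± 0.0746 and 0.233 ± 0.0685, and Krt5 to Krt14 was 0.697 ± 0.397 and 1.12 ± 0.246 (SD, n = 3 each), the low library of the latter being control exposure replicate 3 at 0.239.

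**Figure D2:**
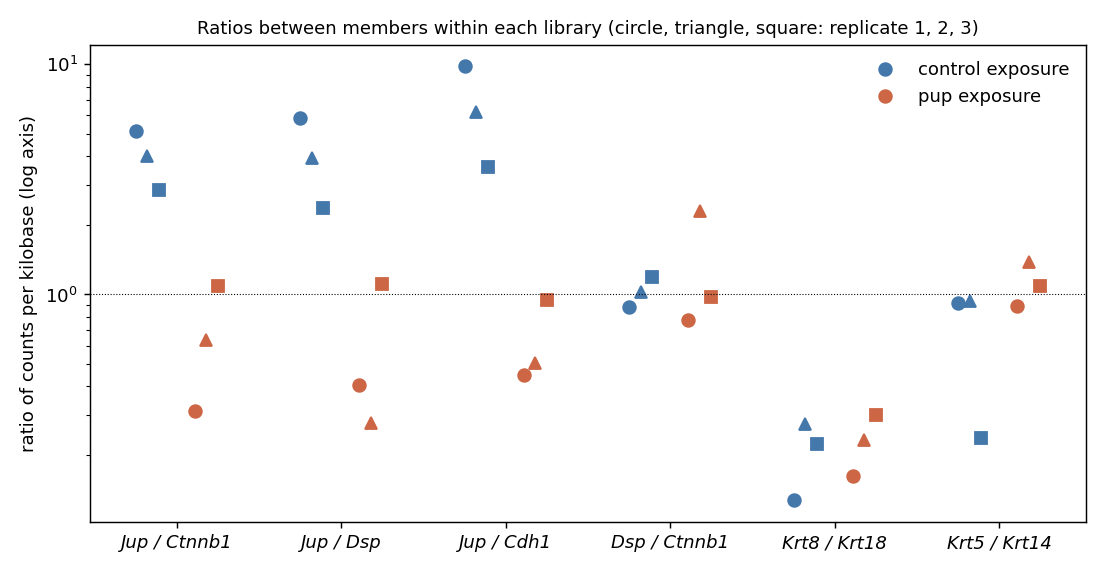
Ratio of counts per kilobase between pairs of members in each library (log axis; the dotted line marks equal levels); each point is 1 library. All control exposure libraries lie above all pup exposure libraries for the 3 ratios with Jup as numerator, from 2.84 to 5.15 against 0.313 to 1.09 for Jup over Ctnnb1, while the other pairs overlap.

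Other genes of the same structures, listed by function, were read next. Over 8 lists with 113 genes, 100 were tested, of which 52 had a negative and 48 a positive log2 fold change, with a median of -0.058. At an unadjusted p under 0.05, 3 were lower and 11 higher (beside 4.67% and 6.31% of all genes), and 0 passed after Benjamini-Hochberg adjustment over all genes in edgeR. DESeq2 called 1 of them, Gsk3b. With a control library left out the 3 lower genes became 0 (replicate 1), 1 (replicate 2) or 5 (replicate 3). The 11 higher genes became 4 when replicate 2 of either group was left out, and 7 when control replicate 3 was. With library totals in place of TMM, the median of all genes moved to 0.31 and the list medians to 0.14 for tight junction genes, 0.20 for hemidesmosome genes, 0.078 for keratins of layered epithelia, 0.26 for identity regulators and 0.00082 for Wnt genes. Those 5 medians changed sign on that scale and lay below the median of all genes, while the other 3 lists kept their sign. None of the 100 had a log2 fold change as low as that of Jup. Over all genes tested only 0.697% did, so nothing is read from this absence.

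Of the other desmosome genes, 9 of 14 were tested, 0 were lower and 3 higher at an unadjusted p under 0.05, with a list median of 0.36. Dsc2, a desmosomal cadherin, had 13.6 ± 0.885 and 29.4 ± 12 CPM (SD, n = 3 each, edgeR adjusted p = 0.424), a log2 fold change of 1.11 (SE 0.42). Ppl, which encodes periplakin of the cell envelope and desmosome, had 39.1 ± 4.76 and 78.2 ± 30.6 CPM (SD, n = 3 each; edgeR adjusted p = 0.424). Dsc3, the desmosomal cadherin of basal layers, had 0, 1 and 0 counts after control exposure and 23, 33 and 37 counts after pup exposure (edgeR adjusted p = 0.395), too few in the control exposure libraries for a fold. Among the adherens junction genes, 12 of 12 were tested, 0 were lower and 3 higher, and the median was 0.74. These were Vcl (vinculin, an actin linker; log2 fold change 1.16, SE 0.48), Afdn (afadin; 1.10, SE 0.47) and Cdh2 (N-cadherin; 1.03, SE 0.45), with edgeR adjusted p of 0.446 to 0.447. The groups overlapped for Afdn and Cdh2. Without pup replicate 2 Cdh2 stood at 0.52. The desmosome median was less steady than the adherens junction one. It was 0.17 without control replicate 3, 0.69 without control replicate 1, 0.62 without pup replicate 2 and 0.73 without pup replicate 3, and 0.14 in limma-voom, while the adherens junction median ran from 0.52 to 0.85 with single libraries left out.

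Tight junction genes were mixed, with 2 lower and 2 higher at an unadjusted p under 0.05 among 19 tested of 20 and a median of -0.094. Cldn23 (log2 fold change -1.88, SE 0.64, edgeR adjusted p = 0.424) and F11r, which encodes the adhesion molecule JAM-A (-1.05, SE 0.46, adjusted p = 0.447), were the lower ones. Cldn12 was among the higher ones (1.86, SE 0.51, edgeR adjusted p = 0.395). F11r had 220, 201 and 108 CPM in the control libraries, against 41, 104 and 110 CPM in the pup libraries, so its groups overlapped. The abundant claudin Cldn3 had 290 ± 34.8 and 177 ± 53.8 CPM (SD, n = 3 each), without overlap, and a log2 fold change of -0.71 (SE 0.39, edgeR adjusted p = 0.509). Hemidesmosome and anchor genes, which fix basal cells to the basement membrane, had 0 lower and 0 higher among 10 tested of 10, with a median of -0.065. Leaving out 1 library at a time moved it to between -0.45 (pup replicate 2) and 0.18 (pup replicate 3), and the tight junction median to between -0.21 (pup replicate 1) and 0.067 (control replicate 3), so neither kept its sign.

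Of the other keratins of single-layered epithelia, 4 of 5 were tested, 1 was lower and 0 higher, with a median of -0.52. Krt19 had 313, 350 and 321 CPM in the control libraries, against 148, 223 and 183 CPM in the pup libraries (log2 fold change -0.83, SE 0.37, edgeR adjusted p = 0.449). Krt7 had 78 ± 23.8 and 47.9 ± 7.78 CPM (SD, n = 3 each, edgeR adjusted p = 0.496), a log2 fold change of -0.70 (SE 0.37), which was -0.43 without control replicate 2. For both the groups did not overlap, as for Krt8 and Krt18, beside 9.60% of all genes tested at lower levels. The groups overlapped for the other tested genes of the list, Krt23 (-0.33, SE 0.36) and Krt80 (0.31, SE 0.84). The other keratins of layered epithelia had 11 of 15 tested, 0 lower and 0 higher, with a median of -0.18 that ran from -1.21 (without pup replicate 1) to 0.48 (without control replicate 3). Among them the basal keratin Krt15 had 30.3, 11.5 and 15.6 CPM in the control libraries, against 1.39, 5.56 and 17.2 CPM in the pup libraries (edgeR adjusted p = 0.528). Its groups overlapped through pup exposure replicate 3, and the log2 fold change of -1.25 (SE 0.73) was -2.46 without that library, -0.74 without control replicate 1 and -0.75 without pup replicate 1.

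Epithelial identity regulators had 0 lower and 1 higher among 17 tested of 17, with a median of -0.011 that ran from -0.19 (without control replicate 1) to 0.17 (without pup replicate 2). The higher one was Grhl2, a transcription factor that acts on junction genes such as Cdh1 (10.4 ± 1.97 and 20.8 ± 7.58 CPM, SD, n = 3 each), at a log2 fold change of 1.01 (SE 0.43, edgeR adjusted p = 0.447). The Wnt pathway list around beta-catenin had 18 of 20 tested, 0 lower and 2 higher, with a median of -0.16 that ran from -0.48 to -0.071 with single libraries left out. Gsk3b, the kinase that marks beta-catenin for destruction, had 124, 128 and 134 CPM in the control libraries, against 272, 547 and 271 CPM in the pup libraries (log2 fold change 1.5, SE 0.41, edgeR adjusted p = 0.395). Rnf43, which encodes a ubiquitin ligase that removes Wnt receptors, had 4.82 ± 2.34 and 16.1 ± 4 CPM (SD, n = 3 each, edgeR adjusted p = 0.395), a log2 fold change of 1.74 (SE 0.50). The groups did not overlap for either gene. Of the 18 Wnt genes tested, 12 had a negative log2 fold change. Groups did not overlap for 2 of the 18 at lower and 2 at higher levels. Among the 17 identity regulators this held for 4 at lower and 1 at higher levels. Over all genes tested the shares were 9.60% and 10.1%.

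**Figure D3:**
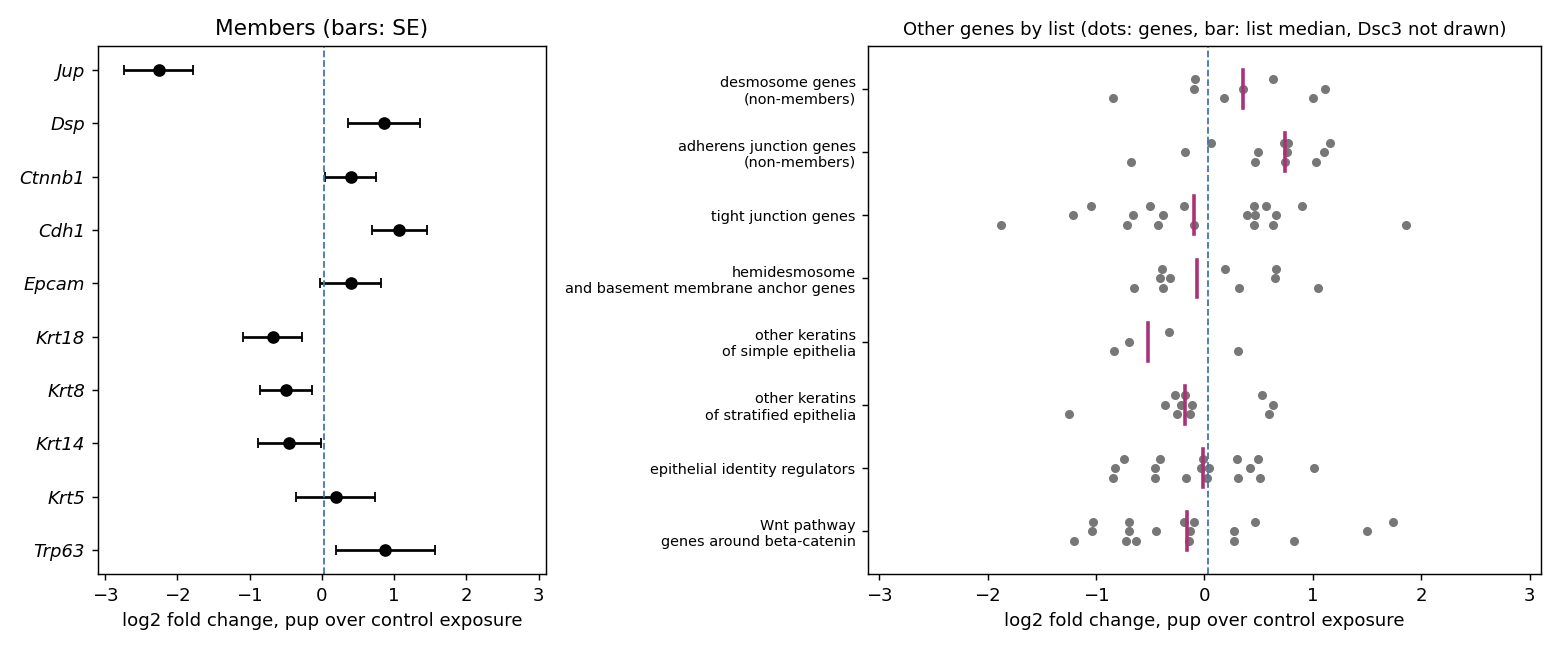
Log2 fold change, pup over control exposure, of the 10 members with SE (left) and of tested genes in the 8 other lists (right; dots are genes, purple bars list medians, Dsc3 not drawn, dashed lines the median of 0.03 over all genes tested). Jup, at -2.26, lies below every gene of the lists, and 0.697% of all genes tested lie as low. The list medians run from -0.52 for the other keratins of single-layered epithelia to 0.74 for adherens junction genes.

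The fold changes moved with annotated exon length over the whole table. Tested genes were split into 3 classes of near-equal size by length. The median log2 fold change was -0.41 in the short class (up to 2970 bases), 0.091 in the middle class and 0.41 in the long class (over 5605 bases). With single libraries left out, the short class ran from -0.55 to -0.25 and the long class from 0.26 to 0.51. All 4 member keratins and Epcam lie in the short class, Ctnnb1 and Cdh1 in the middle class, and Jup, Dsp and Trp63 in the long class. A measure relative to the median of the class was chosen after seeing the data. On it Krt8 stood at -0.093 and Krt14 at -0.037 on the log2 scale. Krt18 was lower, at -0.27, and Krt5 was above its class at 0.60. On the same relative scale Trp63 was at 0.47, Dsp at 0.45, Ctnnb1 at 0.31, Cdh1 at 0.98 and Epcam at 0.81. Jup was at -2.67, farther from the median of its class than from that of all genes. Its class depends on the length used, since its longest annotated transcript, of 3205 bases, falls within the middle class. Of the 4 other tested keratins of single-layered epithelia, Krt19 (-0.83) and Krt23 (-0.33) are in the short class, whose median was -0.41. Krt7 (-0.70, groups without overlap) and Krt80 (0.31, SE 0.84, groups overlapping) are in the long class. The part of length in these differences was not tested.

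**Figure D4:**
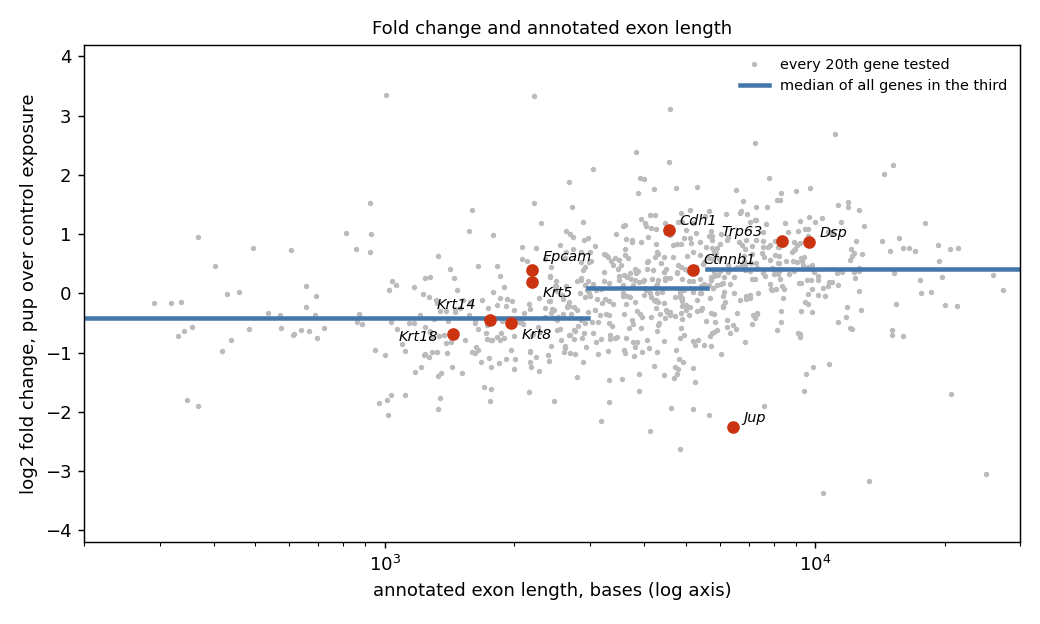
Log2 fold change against annotated exon length in bases (log axis); grey dots are every 20th gene tested (a few lie outside the axes), blue lines the medians of all tested genes in each length class, red dots the members. Krt8 and Krt14 lie near the median of short genes (-0.41), Krt18 lies lower at -0.68, and Jup lies far below the median of long genes (0.41).

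In GENCODE M21 (GRCm38) the other members lie as follows. Ctnnb1 (ENSMUSG00000006932) is at chr9:120929216-120960507 on the plus strand, Dsp (ENSMUSG00000054889) at chr13:38151294-38198577 on the plus strand, and Cdh1 (ENSMUSG00000000303) at chr8:106603351-106670246 on the plus strand. Epcam (ENSMUSG00000045394) is at chr17:87635979-87651129 and Trp63 (ENSMUSG00000022510) at chr16:25683763-25892102, both on the plus strand. Krt18 (ENSMUSG00000023043) is at chr15:102028180-102032027 on the plus strand, Krt8 (ENSMUSG00000049382) at chr15:101996698-102004482 and Krt5 (ENSMUSG00000061527) at chr15:101707070-101712898, both on the minus strand. Krt14 (ENSMUSG00000045545) is at chr11:100203162-100207548 on the minus strand. Jup and Krt14 lie 161 kb apart on chromosome 11, and Krt8 and Krt18 lie 23.7 kb apart on chromosome 15. Within 50 kb of Jup, looked up after its values were seen, 6 of 11 annotated genes were tested. Of the 6, 5 had a negative log2 fold change, beside 48.5% of all genes tested. These 5 ran from -0.91 (SE 0.49) for Gm10039 to -0.30 (SE 1.10) for Hap1. P3h4, which encodes a protein of collagen modification and lies 10.7 kb away, was the positive one at 0.51 (SE 0.51). Eif1, a translation initiation factor gene 46.9 kb away, stood at -0.77 (SE 0.41). Its groups did not overlap, beside 9.60% of all genes tested at lower levels. None of the 6 was as low as Jup, beside 0.697% of all genes tested.

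The 5 genes whose log2 CPM followed Jup most closely over the 6 libraries were Gm16091, Fam3a, Ldha, Apba1 and Pld1 (Pearson r at least 0.99, n = 6 libraries). These points share library, depth and exposure group, so the values are a description. Ldha, a glycolytic enzyme gene, had 401, 355 and 295 CPM in the control libraries, against 142, 178 and 199 CPM in the pup libraries. Pld1, a phospholipase gene, had 30.4, 28.9 and 17.8 CPM and 1.29, 4.25 and 4.45 CPM. Like Jup, these genes were highest in control exposure replicate 1 and lowest in pup exposure replicate 1. Among the members r with Jup ran from 0.85 for Krt8 to -0.73 for Epcam (n = 6 libraries), and Epcam was highest in the library where Jup was lowest.

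Summed markers of vomeronasal neurons (8 of 8 tested, 0 lower and 0 higher at an unadjusted p under 0.05) were 1710 to 1760 CPM after control exposure and 1520 to 1870 CPM after pup exposure, and Omp, a defining marker, was present in every library. Summed sustentacular (supporting) cell markers were 3080 to 3450 and 1060 to 1710 CPM (7 of 8 tested, 2 lower and 0 higher). Most of that sum was Cbr2, at 3190, 2840 and 3060 CPM and then 1530, 906 and 1270 CPM, and the list median was a log2 fold change of 0.21, with 4 of the 7 positive. Summed ciliated cell markers were 638 to 876 and 348 to 448 CPM (8 of 8 tested, 2 lower and 1 higher), with a list median of -0.34 and 4 of the 8 positive. Gland markers, at 232000 to 818000 and 171000 to 425000 CPM, overlapped (7 of 8 tested, 0 lower and 0 higher), although all 7 had a negative log2 fold change, with a median of -0.58. These CPM rest on TMM-scaled totals and are not shares of a library. The gland gene Obp2a, the most abundant gene in every library, held from 9.38% (pup replicate 2) to 26% (control replicate 3) of the raw counts. The groups also overlapped for the endothelial markers, at 30.9 to 38.6 and 28.9 to 44.2 CPM (10 of 10 tested, 0 lower and 0 higher). Red cell markers were 205 to 591 and 52.6 to 168 CPM (4 of 5 tested, 2 lower), smooth muscle markers 1120 to 1760 and 1100 to 1270 CPM (6 of 7 tested, 0 lower), and white cell markers 135 to 551 and 62.8 to 1130 CPM (8 of 8 tested, 1 lower). No marker of these lists was at 0 in all libraries. The part of these cell types in the keratin and Jup values was not tested.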

How the data were processed

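Read counts per Ensembl gene and library were deposited by the authors without normalization. Per the labels' protocols, the RNA was precipitated with an antibody to phosphorylated S6 and made into libraries with a low-input template-switching kit; per the submitters' processing notes the build is GRCm38. How reads were aligned and counted, by which strand setting and gene models, is not given in the sources used here. GENCODE M21 named 36723 of 38561 IDs, and the other IDs held at most 0.233% of a library's counts. The test was edgeR 4.0.16 (quasi-likelihood, group only; R 4.3.3) on genes kept by filterByExpr (minimum count 10, minimum total 15), with TMM scaling, Benjamini-Hochberg adjustment over all genes and a threshold of 0.05; log2 CPM used a prior count of 2. The script was tested on simulated data. Standard errors come from the F statistic. No library was a duplicate: counts of replicate pairs gave a chi-square of 86.2 to 300 for each degree of freedom. Members and lists were chosen with earlier results of these data known. Krt23 and Krt80 were named apart from the rule that follows, to complete the tested keratins of their list. Named were the members, list genes among the 3 smallest p per list and direction (only those with an unadjusted p under 0.12, a limit set after seeing values, and not all of them), and the 5 genes most like Jup, and a list gene is not reported here; the neighbours of Jup were looked up after its values were seen. Alternatives were RLE, upper quartile or no scaling factors, no filter or a stricter one (1 CPM in 3 libraries and 50 counts), DESeq2 1.42.0, limma-voom (limma 3.58.1), the replicate number as a block, and each library left out.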

Additional observations from a re-analysis of the deposited data

How the results depend on the processing

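Under the 14 alternatives Jup kept its negative log2 fold change, between -2.31 and -2.07 for other settings and between -2.54 and -1.95 with single libraries left out. Krt8, Krt14 and Krt18 stayed negative and Dsp, Ctnnb1 and Cdh1 positive under all 14. The sign changed for Krt5 without control exposure replicate 3 (-0.25), and for Trp63 (-0.16) and Epcam (-0.0053) without pup exposure replicate 1. With library totals only, the median over all genes was 0.31, so values there are read relative to it. Genes called lower and higher were 59 and 61 without a filter, 77 and 50 in DESeq2, 7 and 1 in limma-voom, and 0 and 0 with any library left out. Genes lower at an unadjusted p under 0.05 were 168 with library totals only and 1119 in DESeq2, and 400 to 777 with single libraries left out. The higher ones were 1336 with library totals only, 1156 in DESeq2 and 1406 without a filter, and 463 to 1153 with single libraries left out, so library totals shifted the balance toward higher genes. Of the members, 1 was called lower at an adjusted p in DESeq2 and without a filter, which was Jup. The difference of Jup chose the members, so this call adds no support to it. At an unadjusted p, higher members were 1 in edgeR, beside 6.31% of all genes tested. They were 2 with library totals only, 2 without a filter, and 0 to 2 with single libraries left out. Nothing is read from these member counts. Genes of the 8 lists that were lower numbered 1 with library totals only and 0 to 5 with single libraries left out. Higher ones numbered 7 in limma-voom, 6 with the replicate block, and 4 to 11 with single libraries left out. DESeq2 called 1 list gene after adjustment. The median over the lists was 0.29 with library totals only and -0.067 to 0.10 with single libraries left out. The labels state no pairing, and 3 libraries per group are too few to tell whether replicate numbers pair them. Correlations of same-numbered deviations were -0.035, 0.18 and 0.075, and 3 of 6 libraries correlated best with their own number. With the replicate block Jup was at -2.30 and the desmosome median at 0.13. DESeq2 gave no adjusted p for 11599 of 23900 genes. With single libraries left out Krt5 ran from -0.25 to 0.48, Trp63 from -0.16 to 1.24 and Epcam from -0.0053 to 0.64. The causes of these changes were not tested. Depth limits Trp63, Krt5 and Krt14, with 17 to 311 counts in a library.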
